A study of Mus musculus with 35 samples.

Results

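The nuclear oxidative phosphorylation genes are the chromosomal genes for the subunits of the respiratory chain and of ATP synthase. They were chosen by name, as rows of the table that begin with Nduf and a subunit letter and number, Uqcr, Cox4 to Cox8 or Atp5, or that are Sdha, Sdhb, Sdhc or Sdhd. Of 21350 genes in the table, 84 matched, and 79 of these reached 10 in 2 or more columns. These 79 members divided into 35 of complex I, 4 of complex II, 8 of complex III, 15 of complex IV and 17 of complex V, and 14129 genes of the whole table passed the same filter. The other 5 matching rows were Cox6a2, Cox7a1, Cox7b2, Cox8b and Cox8c, isoforms or testis and muscle forms of cytochrome c oxidase subunits.

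Poly-A RNA of mouse cells was sequenced in 35 libraries. The infecting factors were given in combinations named ODR, OA and OB, which the labels do not expand, and the cells were kept in iCD1, a medium for reprogramming, and sampled at days 1, 6 and 14. ODR and OB were also sampled at day 6 with BMP4, a growth factor, at 10 ng/ml, and day 9 cultures of ODDR and ODB were taken with it and without. A mouse embryonic stem cell library (mESC) and a mouse embryonic fibroblast library (MEF) were single, as was each day 9 library. The labels gave 2 ODR, 2 OA and 2 OB libraries at day 1, then 3, 3 and 4 at day 6, and 3 of each at day 14. With BMP4 there were 2 ODR and 2 OB libraries. Pou5f1, the gene for Oct4, stood between 7086 and the table's ceiling of 18690 in every infected library, so no infected culture without it was compared. The labels do not give the strain, the age or the vectors, nor the cells that were infected.

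The respiratory chain is built in the inner mitochondrial membrane from subunits of nuclear and of mitochondrial origin. Complex I takes electrons from NADH and complex II from succinate, complex III passes them to cytochrome c, and complex IV hands them to oxygen. ATP synthase, complex V, uses the proton gradient that complexes I, III and IV build. Pluripotent cells are known for a high rate of glycolysis, and the balance between glycolysis and respiration is known to shift as fibroblasts are reprogrammed. Genes of the mitochondrial genome were not analysed here.

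Values are whole numbers that the authors had brought to a common scale, not read counts. The column totals lay between 4255921 and 4398785, depth is unknown, and levels are compared only within a gene because the values are not known to be per length. One member, Atp5b, reached the ceiling, in 3 values. The library deposited both as ODR day 6 replicate 3 and as ODR with BMP4 day 6 replicate 2 was left out of both groups, so ODR at day 6 has 2 libraries without BMP4 and a single library with it. A second pair of identical columns carries the labels ODDR with BMP4 and ODB with BMP4 at day 9, so neither was used in a comparison. Kdm2b was 4220 or more in all OB libraries and 460 or less in the ODR and OA libraries. Kdm2a was 9294 or more in the OA libraries except the library labelled OA day 14 replicate 2, where it was 721, within the range of the other combinations. Summed over 8 fibroblast markers that library stood at 9535, against 49121 and 50102 in the other OA day 14 libraries. Comparisons with the OA libraries of day 14 are therefore also given without it. In these bulk cultures, fewer cells of a type and less RNA per cell cannot be told apart. The 8 stem cell markers summed to 20 to 35 in OB at day 14 and to 15439 in mESC. The day 14 OB cultures thus lacked most of the messenger RNA of these markers.

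The members were broadly present. Of the 79, 75 reached 10 in every library and 77 were above 0 in every library. The 4 that fell under 10 somewhere were Cox4i2, Ndufa4l2, Atp5s and Cox6b2. Differences below are log2 differences of value plus 1, with the standard error from a limma fit over all 27 libraries in use. Calls were made at p below 0.05 after Benjamini-Hochberg adjustment across the 14129 genes. Most genes named below were picked among called members whose libraries do not overlap. For them a lack of overlap describes the values and is no further support.

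Promoter sequence was available for 66 members in RefSeq windows that run from 250 bases before to 50 bases after the start of each gene (GRCm38.p6). Motifs were searched on both strands as exact letters. The NRF1 motif GCGCATGC, named for a factor known to drive respiratory genes, was in the windows of 10 of 66 members (15.2%) and of 3.05% of 27025 genes. The ETS motif ACCGGAAG, the site type of the GABP factor, was in 6 (9.1%, against 2.6% of all). The YY1 motif AAGATGGC was in 11 (16.7%, against 3.19%). A CCAAT box was in 29 members (43.9%), near the 41.1% of all genes, and the core ACGTG of the hypoxia response element was in 17 (25.8%, against 21.8%). The 27025 genes include genes that did not pass the value filter, so the shares among genes that passed it are not known. These are matches of letters and do not show binding. The following stretches are shown because their genes differ in behavior across the comparisons below. They are placed by the RefSeq starts. The GENCODE annotation, used for the other positions, starts Sdhb, Atp5k and Atp5j further upstream. There the motifs of these genes lie inside the gene or at its start. Capitals mark the motif, which is NRF1 in the first 4 (in Sdhb as its reverse complement), ETS in Sdhd (also reversed) and YY1 in Atp5j.
Sdhb, chr4:140961191-140961250, plus strand: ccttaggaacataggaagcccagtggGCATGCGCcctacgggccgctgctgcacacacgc
Atp5k, chr5:108434416-108434475, minus strand: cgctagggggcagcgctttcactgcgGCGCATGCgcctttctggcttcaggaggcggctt
Cox6a1, chr5:115349087-115349146, minus strand: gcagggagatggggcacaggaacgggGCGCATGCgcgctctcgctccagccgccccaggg
Ndufa11, chr17:56717676-56717735, plus strand: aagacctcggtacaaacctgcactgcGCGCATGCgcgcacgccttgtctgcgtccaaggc
Sdhd, chr9:50603862-50603921, minus strand: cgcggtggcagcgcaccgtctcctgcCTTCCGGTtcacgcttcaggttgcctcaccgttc
Atp5j, chr16:84835031-84835090, minus strand: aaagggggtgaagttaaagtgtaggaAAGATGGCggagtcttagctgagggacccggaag

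At day 1 no member differed between combinations by the test. None was called in OB against ODR (0.856% of all genes were, in either direction), in OA against ODR (0.0637%) or in OB against OA (1.38%) by limma, and at an unadjusted p under 0.05 the counts were 0, 0 and 1. The mean log2 level of the 79 members was 8.35 ± 0.16 in ODR, 8.31 ± 0.06 in OA and 8.32 ± 0.09 in OB (SD, n = 2 each).

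From day 1 to day 6 a few members fell in each combination. In ODR, 8 members fell and none rose (12.3% of all genes rose and 12.3% fell). In OA, 12 fell and none rose (16.6% and 17.3%). In OB, 8 fell and 1 rose (16.4% and 16.8%). The share of members that fell was 10.1%, 15.2% and 10.1%, which is near the share of all genes or under it. The median member difference was -0.16 in ODR, -0.13 in OA and -0.14 in OB, against -0.025, -0.023 and -0.026 over all genes.

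Uqcrb, Uqcrc1, Ndufb8, Cox7b and Atp5g1 fell in all 3 combinations. How many of all genes did so was not counted. Uqcrb encodes a small complex III subunit that helps bind ubiquinone, and its values were 649 and 728 at day 1 and 396 and 331 at day 6 in ODR. In OA they were 764 and 682, then 326, 330 and 384, and in OB 554 and 525, then 346, 352, 362 and 358. The day 1 and day 6 libraries did not overlap in any combination. The log2 difference was -0.92 (SE 0.17, adjusted p = 0.000677) in ODR, -1.06 (SE 0.15, adjusted p = 5.2e-05) in OA and -0.60 (SE 0.15, adjusted p = 0.00409) in OB, by limma.

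Uqcrc1, a core protein of complex III, stood at 844 and 918 at day 1 and 614 and 587 at day 6 in ODR, a difference of -0.55 (SE 0.11, limma adjusted p = 0.00135). In OA it differed by -0.38 (SE 0.10) and in OB by -0.32 (SE 0.09). Cox5a, a complex IV subunit, fell in ODR and OA, with differences of -0.75 and -0.83, and did not pass the test in OB. Whether the combinations differ in this was not tested. The exception among the falling genes was Ndufa6, a complex I accessory subunit, at 212 and 185 at day 1 and 291, 238, 264 and 277 at day 6 in OB, which rose by 0.43 (SE 0.14, limma adjusted p = 0.0218). Of the 2 day 1 libraries of each combination, leaving out replicate 2 brought the called members to 2 in ODR, 3 in OA and 3 in OB.

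At day 6 few members differed between combinations. Ndufa5, a complex I accessory subunit, was the only member that differed between OB and ODR (5.64% of all genes were higher and 4.67% lower). It stood at 160, 180, 187 and 206 in OB and at 258 and 260 in ODR, without overlap, a difference of -0.50 (SE 0.15, limma adjusted p = 0.0455). Atp5a1, the alpha subunit of the F1 head of ATP synthase, was the only member higher in OB than in OA (3.84% and 3.28% of all genes were higher and lower). Its OB values were 2802, 2478, 2886 and 2620 and its OA values 2066, 2118 and 2412, a difference of 0.30 (SE 0.08, limma adjusted p = 0.026). No member differed between OA and ODR (2.17% of all genes in either direction), and 2 did at an unadjusted p under 0.05. The calls of Ndufa5 and Atp5a1 were lost when single libraries were left out.

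**Figure D1:**
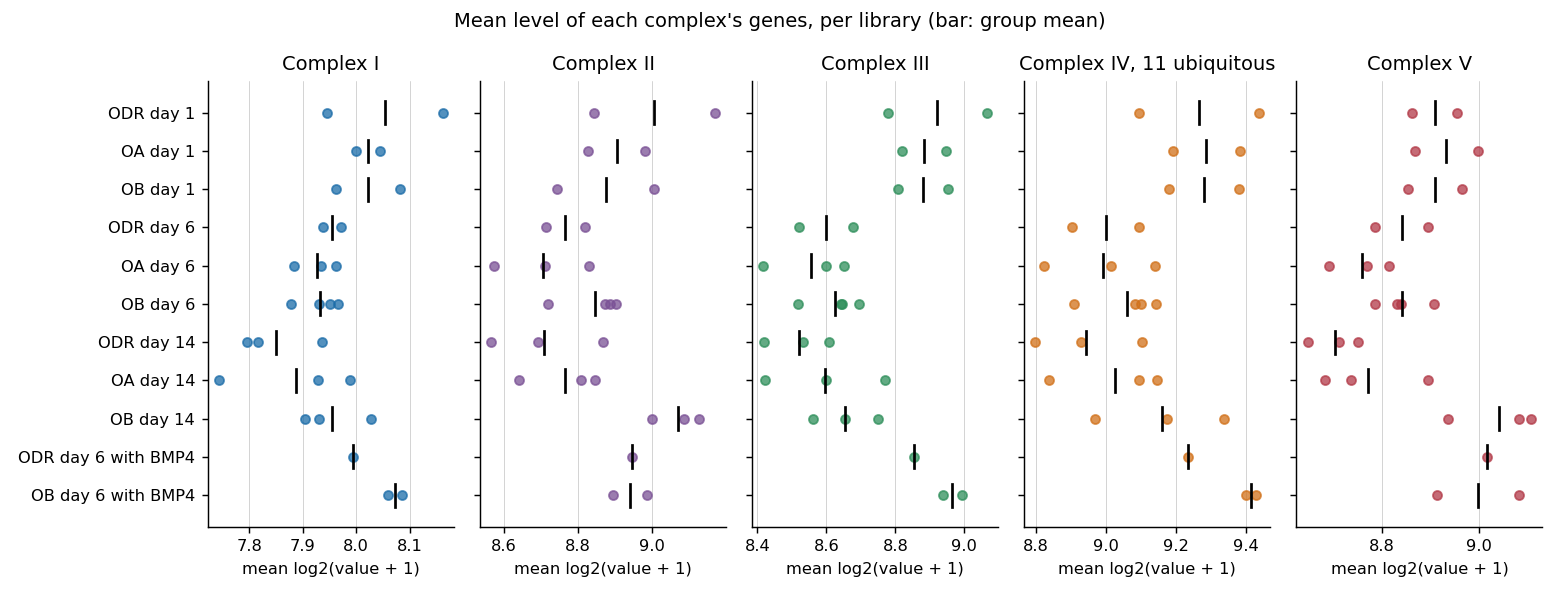
Mean log2(value + 1) of the members of each complex (horizontal axis, a separate range for each panel) in each library (points) of the groups in the fit (vertical axis), with the group mean as a bar; for complex IV the 11 ubiquitous subunits are shown. The OB libraries at day 14 lie to the right of the ODR libraries at day 14 for complexes II and V. The OB libraries with BMP4 lie to the right of OB at day 6 without it for complexes I, III and V and for the complex IV subunits, narrowly so for complex V.

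At day 14 OB differed from both other combinations. Against ODR, 29 members were higher and 6 lower in OB (27.6% and 26.2% of all genes, and 36.7% and 7.59% of the members). The median member difference was 0.21, against 0.009 over all genes, and 55 of the 79 differences were above 0. Folds were small, since 32 of the 35 called members differed by less than 2-fold and the smallest called fold was 1.22. ODR and OA did not differ in any member at day 14 (5.27% of all genes in either direction), and 2 members did at an unadjusted p under 0.05.

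Against OA, 25 members were higher and 7 lower in OB at day 14 (26.1% and 24.8% of all genes). The comparisons of OB with ODR and with OA share the OB libraries, and 23 higher and 5 lower members were called in both. Genes called in both were not counted over the whole table. The count of 32 called against OA fell to 20, with 13 higher and 7 lower, without OA replicate 1, and to 11, all higher, in a fit of only the 2 groups compared. Without the library labelled OA day 14 replicate 2, 25 were higher and 5 lower than in OA, and 23 higher and 5 lower were again called against both. OA against ODR at day 14 also gave no member without it.

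The day 14 counts for each complex below stand against 27.6% of all genes higher in OB than in ODR and 26.2% lower. How often the libraries of 2 groups did not overlap over all genes was not counted, here or in the other comparisons. Complex I held members called in both directions, and its core and accessory subunits were not tested against each other. Its 7 nuclear-encoded core subunits carry the flavin and iron-sulfur centres and are conserved from bacteria. Of these 7, 4 were higher in OB than in ODR and none lower, with a median of 0.47. Of its 28 accessory subunits, which surround the core, 6 were higher and 4 lower, with a median of 0.02.

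Ndufv2, a core subunit of the NADH-binding module, stood at 506, 470 and 490 in OB and at 288, 298 and 356 in ODR at day 14. The OB libraries were all above the ODR libraries and above the OA libraries, at 330, 359 and 300. The difference from ODR was 0.64 (SE 0.11, limma adjusted p = 8.09e-05).

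Ndufs1, the largest core subunit, was 512, 586 and 586 in OB and 394, 386 and 432 in ODR, also without overlap, a difference of 0.47 (SE 0.12, limma adjusted p = 0.00226). Ndufs3 and Ndufv1 were the other core subunits that were higher, by 0.51 each. Ndufs7 and Ndufs8 gave differences of -0.28 and 0.06 that did not pass the test.

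Among accessory subunits, Ndufb8 of the membrane arm (chromosome 19, 44548572 to 44555440, minus strand) was 476, 456 and 479 in OB and 320, 301 and 296 in ODR. OA was at 370, 310 and 326, so OB was above all 6 libraries of the other combinations. The difference from ODR was 0.62 (SE 0.09, limma adjusted p = 1.13e-05).

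Ndufb8 was among the genes that fell from day 1 to day 6 in all 3 combinations, and in OB its day 14 values were above its day 1 values of 432 and 414. Ndufa10, a membrane arm subunit related to nucleoside kinases, was 590, 570 and 627 in OB and 364, 411 and 460 in ODR, a difference of 0.54 (SE 0.09, limma adjusted p = 7.21e-05). Its groups did not overlap either.

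The 4 accessory subunits that were lower in OB were Ndufa5, Ndufb4, Ndufa1 and Ndufa3. Ndufa5 was 146, 120 and 145 in OB and 196, 222 and 259 in ODR, a difference of -0.71 (SE 0.15, limma adjusted p = 0.000456). Ndufb4 was 274, 300 and 314 in OB and 428, 382 and 424 in ODR, a difference of -0.47 (SE 0.13, limma adjusted p = 0.00375). Ndufa1 was 102, 107 and 128 in OB and 196, 138 and 168 in ODR, a difference of -0.56 (SE 0.16, limma adjusted p = 0.00581). In each of these genes the OB libraries were all below the ODR libraries. Complex I thus held subunits called in opposite directions, as did all genes, of which 27.6% were higher and 26.2% lower.

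Complex II, which is also succinate dehydrogenase of the tricarboxylic acid cycle and has no mitochondrially encoded subunit, was higher in 3 of its 4 genes. Sdha, the flavoprotein, was 1044, 1310 and 1122 in OB, 662, 662 and 805 in ODR and 806, 890 and 856 in OA at day 14. OB was above every library of the others, and the difference from ODR was 0.71 (SE 0.15, limma adjusted p = 0.000706).

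Sdhb, the iron-sulfur subunit, was 535, 441 and 528 in OB, 322, 412 and 402 in ODR and 330, 350 and 379 in OA, a difference from ODR of 0.41 (SE 0.11, limma adjusted p = 0.00368). Sdhd, a membrane anchor, was 470, 456 and 508 in OB and 364, 374 and 426 in ODR, a difference of 0.30 (SE 0.10, limma adjusted p = 0.0208). Both genes kept the OB libraries apart from those of ODR. Sdhc, the other anchor, was 258, 328 and 320 in OB and 262, 283 and 342 in ODR, with full overlap and a difference of 0.03 (SE 0.21, limma adjusted p = 0.918). The Sdhd call was lost when ODR replicate 1, ODR replicate 2 or OB replicate 3 of day 14 was left out, with an adjusted p of up to 0.0794.

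In complex III, 2 of 8 genes were higher in OB and 1 lower (27.6% and 26.2% of all genes). The higher genes were its 2 core proteins, and the lower gene was 1 of its 5 small subunits. The core and small subunits were not tested against each other. Uqcrc2, a core protein (chromosome 7, 120635176 to 120659524, plus strand), was 679, 768 and 750 in OB and 388, 442 and 473 in ODR, a difference of 0.76 (SE 0.12, limma adjusted p = 4.08e-05). OA was at 442, 424 and 470, so the OB libraries lay far above both. Uqcrc1 differed by 0.36 (SE 0.09) and Uqcrfs1, the Rieske protein, by 0.49 (SE 0.24, limma adjusted p = 0.0985), which did not pass. The small subunit Uqcrh was 558, 576 and 604 in OB and 548, 468 and 490 in ODR, without overlap, and its difference of 0.21 (SE 0.10, limma adjusted p = 0.0977) did not pass. Against OA Uqcrh was higher in OB, by 0.29 (SE 0.10, limma adjusted p = 0.027).

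Uqcrb moved the other way. It was 226, 266 and 278 in OB and 312, 334 and 368 in ODR at day 14, a difference of -0.40 (SE 0.14, limma adjusted p = 0.0211), and all OB libraries were below all ODR libraries. The call was lost without ODR replicate 3 or OB replicate 1, with an adjusted p of 0.0839 and 0.105. Against OA, at 334, 538 and 384, the difference was -0.68 (SE 0.14, limma adjusted p = 0.000513), and without OA replicate 2, which has the value 538, it was -0.48 (SE 0.12, limma adjusted p = 0.00212).

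In complex IV the large differences were in 3 tissue-restricted isoforms. Cox4i2 is the lung and hypoxia-linked form of subunit 4, Ndufa4l2 is the hypoxia-linked relative of Ndufa4, and Cox6b2 is the testis form of subunit 6b.

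Ndufa4l2 (chromosome 10, 127514967 to 127517154, plus strand) was listed at 0 in every library of days 1 and 6 without BMP4. At day 14 it was 103, 85 and 36 in OB, 2, 3 and 11 in ODR and 2, 102 and 1 in OA. The high OA value is that of the library labelled OA day 14 replicate 2, and the other OA libraries were as low as ODR. OB against ODR differed by 3.72 (SE 0.93, limma adjusted p = 0.00254), a fold that rests in part on the 1 added to low values.

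Ndufa4l2 was also called in OA from day 6 to day 14 (limma adjusted p = 0.0497), against a day 6 group listed at 0. Without OA day 14 replicate 2 that call was lost (adjusted p = 0.0825). Its ubiquitous relative Ndufa4 was 452, 578 and 706 in OB and 442, 473 and 628 in ODR at day 14, overlapping, a difference of 0.16 (SE 0.21, limma adjusted p = 0.53).

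Cox4i2 (chromosome 2, 152754173 to 152765037, plus strand) was 29, 25 and 13 in OB at day 14 and 4 or less in every other library in the fit. Against ODR, at 4, 2 and 1, the difference was 2.84 (SE 0.58, limma adjusted p = 0.000489), at values close to the bottom of the scale. Cox4i2 reached 10 only in these 3 OB libraries, so it passed the filter through the group in which it is high. Its calls against ODR and OA and its place among the higher members at day 14 are therefore no independent support. The ubiquitous Cox4i1 was 1044, 1214 and 1266 in OB and 922, 946 and 1105 in ODR, overlapping, a difference of 0.24 (SE 0.13, limma adjusted p = 0.134).

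Cox6b2 went down instead, at 8, 26 and 30 in OB and 56, 51 and 48 in ODR at day 14, a difference of -1.42 (SE 0.51, limma adjusted p = 0.0254). The libraries did not overlap, though the call was lost without ODR replicate 1, ODR replicate 2 or OB replicate 1, with an adjusted p of up to 0.176. In OA it was 22, 156 and 30, and again the high value was that of replicate 2. Cox6b1, its ubiquitous partner, was 678, 649 and 746 in OB and 675, 612 and 670 in ODR, which overlapped.

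**Figure D2:**
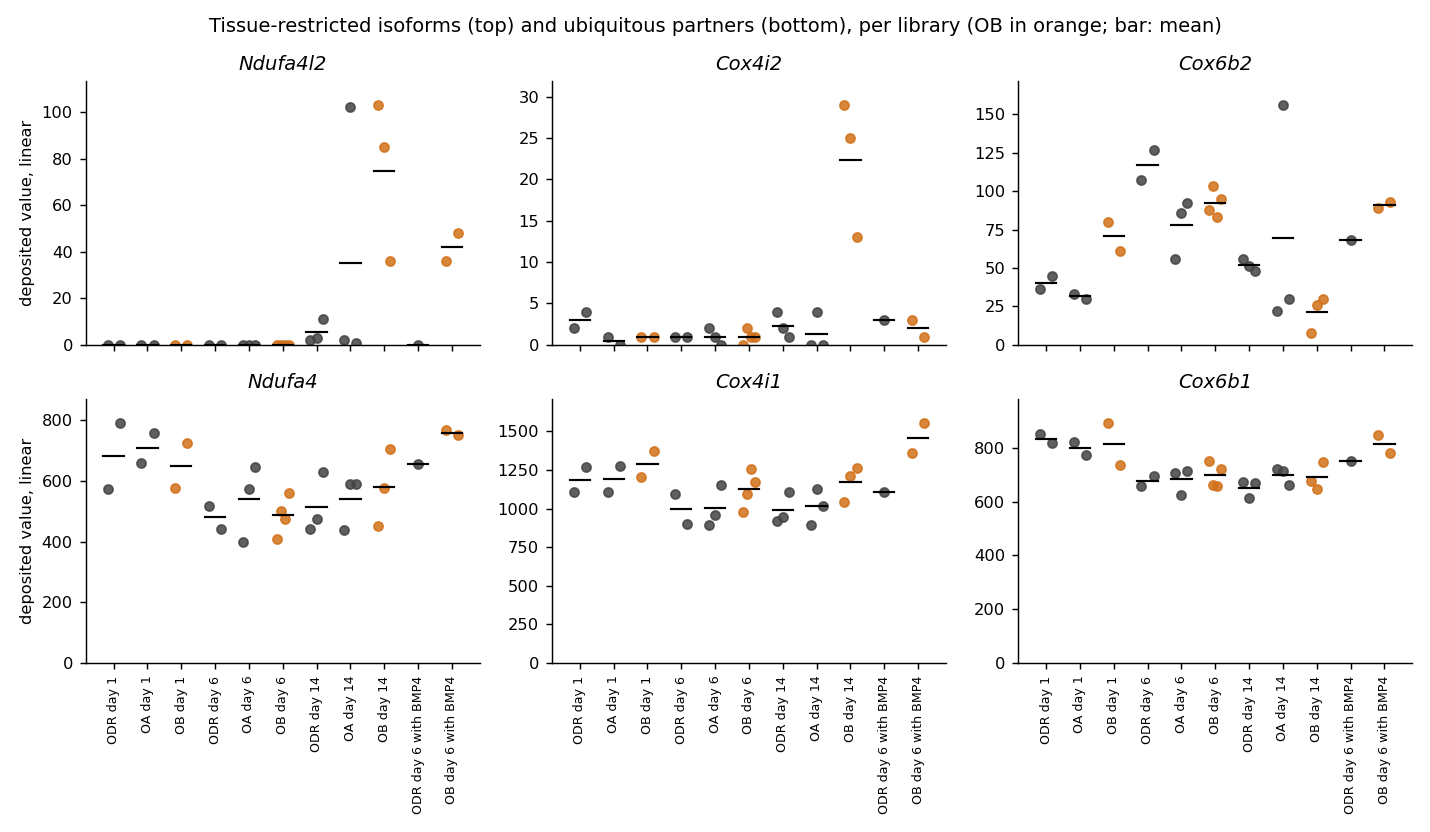
Deposited values on a linear axis for Ndufa4l2, Cox4i2 and Cox6b2 (top) and their ubiquitous partners Ndufa4, Cox4i1 and Cox6b1 (bottom) in each library (points) of the groups in the fit, with OB in orange and the group mean as a bar. Ndufa4l2 is above 30 in the OB libraries at day 14 and with BMP4 and in OA day 14 replicate 2, and Cox4i2 is above 10 in the OB libraries at day 14.

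Of the 11 ubiquitous complex IV subunits, 3 were higher in OB than in ODR at day 14 and none lower, with a median of 0.25. Cox7c, a small membrane subunit, was 504, 471 and 520 in OB and 293, 380 and 422 in ODR, without overlap, a difference of 0.46 (SE 0.15, limma adjusted p = 0.0143). Cox5a differed by 0.59 and Cox7b by 0.35, and both passed. The Cox7c call was lost without ODR replicate 1, and its highest adjusted p over the alternatives that lost it was 0.0977.

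Complex V was higher in OB in 9 of its 17 genes and lower in none, with a median of 0.39. All 4 peripheral stalk genes were higher, as were 3 of 5 genes of the F1 head, 1 of 3 genes of the c ring and 1 of 3 supernumerary membrane subunits. The 2 genes that carry an Atp5 name without coding for a subunit, Atp5s and Atp5sl, did not pass.

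Atp5a1 was 4218, 3994 and 3993 in OB, 2412, 2478 and 2536 in ODR and 2886, 2802 and 2620 in OA at day 14. The OB libraries lay well above all others, and the difference from ODR was 0.72 (SE 0.08, limma adjusted p = 1.29e-06). Atp5c1, the gamma subunit that turns inside the F1 head (chromosome 2, 10056016 to 10080510, minus strand), was 1142, 1196 and 1134 in OB, 786, 782 and 763 in ODR and 822, 873 and 763 in OA. It differed from ODR by 0.57 (SE 0.07, limma adjusted p = 3.31e-06), and its OB libraries were also above those of days 1 and 6.

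Atp5f1, the b subunit of the peripheral stalk (chromosome 3, 105942698 to 105960099, minus strand), was 1470, 1279 and 1295 in OB, 744, 788 and 810 in ODR and 927, 706 and 900 in OA. The difference from ODR was 0.79 (SE 0.10, limma adjusted p = 6.02e-06), again without overlap. The other stalk genes differed by less, Atp5o by 0.39, Atp5j by 0.37 and Atp5h by 0.29. Atp5d, the delta subunit of the F1 head, stayed within 0.05 of ODR (difference -0.05, SE 0.08, limma adjusted p = 0.6).

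Atp5b, the catalytic beta subunit, was 5616, 9301 and 18690 in OB and 5077, 5077 and 6244 in ODR. The groups overlapped, 1 OB value was at the ceiling and the values take coarse steps at this height, so its called difference of 0.87 (SE 0.34, limma adjusted p = 0.0407) carries little precision.

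The c ring is coded by 3 genes whose mature proteins are identical. Atp5g3 was 767, 864 and 1117 in OB and 538, 596 and 688 in ODR, a difference of 0.58 (SE 0.20, limma adjusted p = 0.0213), without overlap. Atp5g2 was 612, 812 and 466 in OB and 438, 570 and 323 in ODR, overlapping, a difference of 0.51 (SE 0.28, limma adjusted p = 0.135). Atp5g1 was 490, 462 and 502 in OB and 446, 463 and 482 in ODR, a difference of 0.06 (SE 0.08, limma adjusted p = 0.509). The related sequences of these genes make the split of reads between them uncertain.

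**Figure D3:**
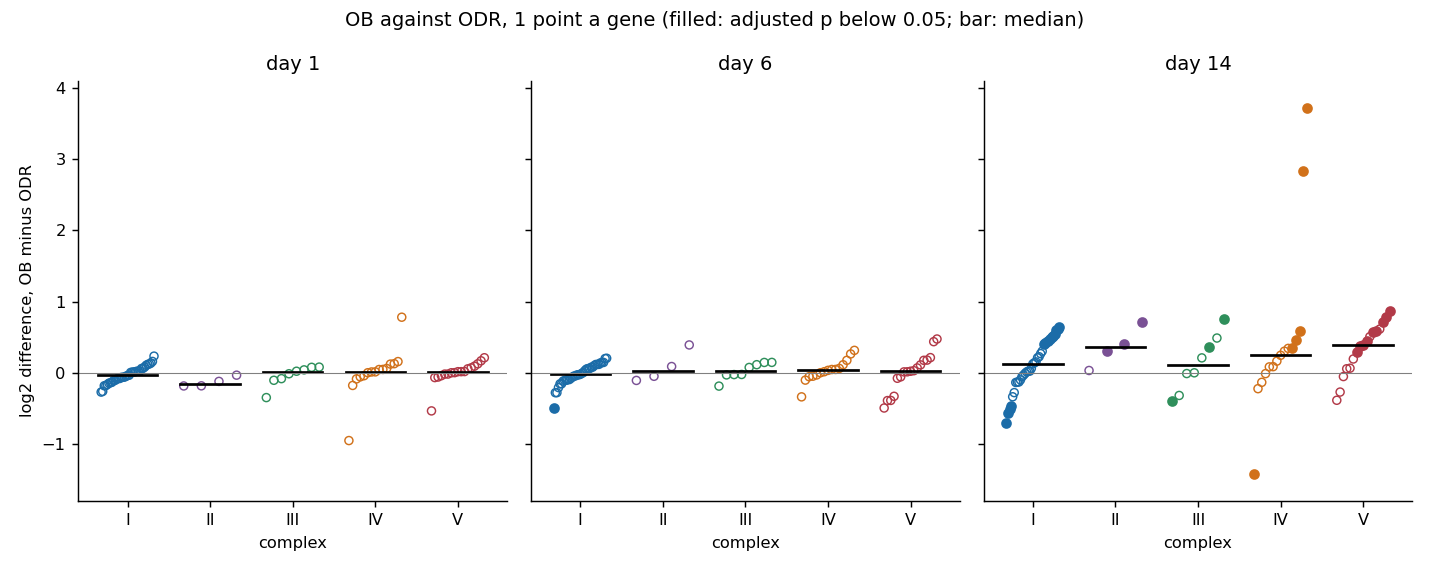
Log2 difference, OB minus ODR (vertical axis), of each member by complex (horizontal axis) at days 1, 6 and 14, with members at an adjusted p below 0.05 filled and the median of each complex as a bar. The points lie around 0 at days 1 and 6 and spread at day 14, where the members of complexes II and V lie mostly above 0 and the 2 points above 2 are Ndufa4l2 and Cox4i2.

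Between days 6 and 14, 20 members rose and 8 fell in OB (26.5% and 27.7% of all genes, and 25.3% and 10.1% of the members), with a median of 0.12. The share that rose was near that of all genes. The 20 include Cox4i2, which passed the filter only through the OB libraries of day 14. In ODR none rose and 1 fell (2.21% and 1.61%), namely Ndufs4, an accessory subunit needed for complex I assembly, from 204 and 209 to 138, 140 and 162 (difference -0.49, SE 0.12, limma adjusted p = 0.033). In OA 2 rose and none fell (4.0% and 3.91%), Ndufa4l2 and Atp5a1. In all 3 combinations the members' share was near that of all genes or under it. Without OA replicate 2, Atp5a1 kept its call in OA (difference 0.33, limma adjusted p = 0.0387), Ndufa4l2 lost it and Cox6b2 fell (difference -1.53, limma adjusted p = 0.0146).

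The change in OB minus that in ODR was tested directly. It was positive for 14 members and negative for 1 (17.9% and 16.8% of all genes), with a median of 0.22 against a value of zero to 2 decimals over all genes. Atp5c1 gave 0.65 (SE 0.11, limma adjusted p = 0.000178) and Ndufb8 gave 0.66 (SE 0.13, limma adjusted p = 0.000741). Ndufv2 gave 0.70, Atp5a1 0.54, Atp5f1 0.61 and Uqcrc2 0.61, and all passed. Ndufb4 was the member with a negative difference, at -0.55 (SE 0.18, limma adjusted p = 0.0257). The share of members called here was near or below that of all genes in both directions. Cox4i2 is among the 14 and passed the filter only through the OB libraries of day 14.

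With BMP4, 15 members rose and 1 fell in OB at day 6 (14.8% and 17.1% of all genes, and 19.0% and 1.27% of the members), so the share that rose was near the background. The count of 16 called fell to 7 without OB replicate 1 with BMP4 and to 8 without replicate 2. The median difference over the 79 was above that of all genes, with 0.22 against -0.014, and 63 of the 79 differences were above 0. All 8 complex III genes and all 11 ubiquitous complex IV genes had differences above 0, of which 3 and 4 passed.

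In complex III, Uqcrb was 586 and 574 with BMP4 and 346, 352, 362 and 358 without it, a difference of 0.71 (SE 0.15, limma adjusted p = 0.00131). The groups were far apart. Uqcrh, the hinge protein, was 675 and 578 with BMP4 and 518, 449, 420 and 502 without (difference 0.41, SE 0.11, limma adjusted p = 0.00847), and Uqcrq was 408 and 438 against 295, 318, 352 and 334 (difference 0.38, SE 0.12, limma adjusted p = 0.0253).

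In complex IV, Ndufa4l2 was 36 and 48 with BMP4 and listed at 0 in all 4 OB libraries without it (limma adjusted p = 0.000478), and it was 0 in the ODR library with BMP4. Ndufa4 was 768 and 750 against 410, 500, 475 and 560, a difference of 0.65 (SE 0.22, limma adjusted p = 0.03), without overlap. Cox6a1, a ubiquitous subunit, was 922 and 1054 against 689, 721, 789 and 802, a difference of 0.40 (SE 0.12, limma adjusted p = 0.0155). Cox5b and Cox8a also rose, by 0.23 and 0.34. Cox4i2 was 3 and 1 with BMP4, and Cox6b2 was 89 and 93 against 88, 103, 83 and 95.

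In complex I, Ndufs1 was 574 and 560 with BMP4 and 357, 410, 404 and 402 without, a difference of 0.53 (SE 0.12, limma adjusted p = 0.00333). Ndufa9, an accessory subunit near the quinone site, was 342 and 385 against 206, 260, 241 and 260 (difference 0.59, SE 0.16, limma adjusted p = 0.01). Ndufb6 was 200 and 274 against 120, 148, 179 and 130 (difference 0.71, SE 0.21, limma adjusted p = 0.0151). The groups did not overlap in any of these genes, which were named in part for that reason. Ndufb4 fell, from 502, 492, 437 and 425 to 296 and 278, a difference of -0.69 (SE 0.13, limma adjusted p = 0.000759).

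In complex II, Sdhd rose from 364, 428, 385 and 344 to 538 and 488 (difference 0.43, SE 0.11, limma adjusted p = 0.00613), and Sdha, Sdhb and Sdhc gave 0.17, -0.27 and 0.04, which did not pass. In complex V, Atp5g3 rose from 564, 668, 782 and 694 to 983 and 1117 (difference 0.64, SE 0.21, limma adjusted p = 0.03) and Atp5o from 842, 886, 773 and 857 to 1184 and 946 (difference 0.34, SE 0.11, limma adjusted p = 0.0214). Atp5g1 and Atp5g2 differed by 0.09 and -0.17 and did not pass. Atp5a1, Atp5c1 and Atp5f1, which led the day 14 comparison, gave 0.17, 0.14 and -0.14 and did not pass either.

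Of the 13 named genes, Ndufa4l2, Ndufb4, Ndufs1 and Uqcrb kept their calls in every alternative tried.

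Of the 15 members that rose with BMP4 in OB, 7 were also among the 29 higher in OB than ODR at day 14: Atp5g3, Atp5o, Ndufa4l2, Ndufa9, Ndufb8, Ndufs1 and Sdhd. Ndufb4 was lower in both comparisons. Uqcrb and Cox6a1 were higher with BMP4 and lower in OB than in OA at day 14. For Cox6a1 that difference from OA was -0.47 (limma adjusted p = 0.00188), and -0.31 (limma adjusted p = 0.00963) without OA replicate 2. Of all 79 members 29 were higher in OB than in ODR at day 14, and the overlap over all genes was not counted. No test of the overlap was made.

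In ODR, BMP4 gave 1 member higher and 1 lower (4.96% and 6.3% of all genes), with 1 library with BMP4 against 2 without. Sdhd was 560 against 414 and 372, a difference of 0.51 (SE 0.16, limma adjusted p = 0.0425), and Ndufa5 was 145 against 258 and 260, a difference of -0.83 (SE 0.22, limma adjusted p = 0.0197). Both calls were lost when either ODR library without BMP4 was left out. The median member difference was 0.13, against 0.003 over all genes. The BMP4 effects in OB and ODR did not differ in any member by the test of the difference (1.22% of all genes in either direction), and 1 member differed at an unadjusted p under 0.05. With a single ODR library this does not show that the effects are alike.

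**Figure D4:**
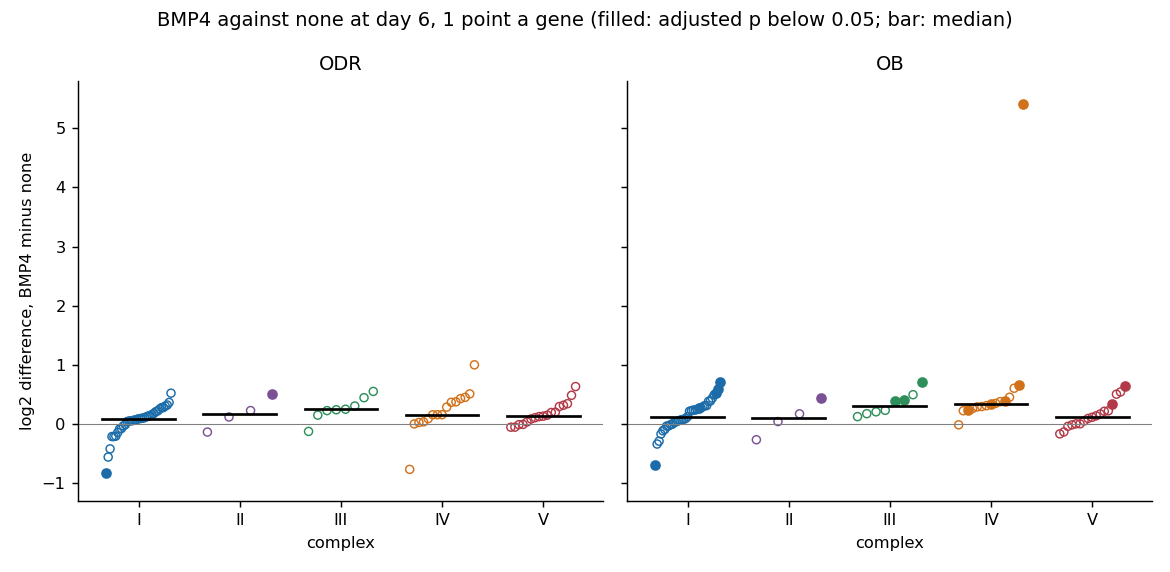
Log2 difference, with BMP4 minus without (vertical axis), of each member by complex (horizontal axis) in ODR (1 library against 2) and OB (2 against 4) at day 6, with members at an adjusted p below 0.05 filled and the median of each complex as a bar. In OB 15 filled points lie above 0 and 1 below, with Ndufa4l2 above 5, and in ODR 1 lies on each side.

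Sums of other cell type markers differed between the groups in which members differed. The 6 epithelial markers summed to 73, 133 and 205 in OB at day 14 against 5, 8 and 10 in ODR, and to 394 and 954 in OB with BMP4 against 51 to 82 without. The fibroblast markers summed to 7897 and 8802 in OB with BMP4 and 21085 to 33313 without, and to 18233 to 20968 in OB and 18641 to 28585 in ODR at day 14. The 10 muscle markers summed to 1903 to 1980 in OB at day 6, 385 and 397 with BMP4, 423 to 1086 in OB at day 14 and 788 to 1478 in ODR at day 14. The 6 neural markers summed to 2602 to 3165 in OB and 3950 to 5286 in ODR at day 14, and to 2505 and 2768 in OB with BMP4 against 4667 to 5814 without, though at day 14 2 of the 6 were higher in OB by the test and 1 lower. The 6 endothelial markers summed to 96 to 129 in OB and 272 to 343 in ODR at day 14, and to 125 and 148 with BMP4 against 177 to 267. The 6 macrophage and leukocyte markers stood at 10 to 34 and 39 to 57, and at 74 and 78 against 115 to 144. The 7 adipocyte markers stood at 14 to 15 and 52 to 80, and at 3 and 7 against 13 to 36. At day 14, 4 of these 7 were at 0 in each OB library and 4 to 6 in ODR. Of the muscle markers 5 or 6 were at 0 in each of these libraries, so both sums rest on few genes. Of the epithelial markers 2 to 4 were at 0 in ODR at day 14 and 0 or 1 in OB. So at day 14 the OB and ODR sums were apart for the epithelial, neural, endothelial, leukocyte and adipocyte markers and overlapped for the fibroblast and muscle markers, and with BMP4 all 7 of these sums were apart. The 8 stem cell markers summed to 20 to 35 in OB and 2 to 6 in ODR at day 14. The part of the mix of cells in the results for the members was not tested.

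Transcript length also went with the day 14 difference. Across the 79 members the difference between OB and ODR had a Spearman rho of 0.37 with the length of the principal transcript, given as a description since genes are not replicates. Over all genes with a length the rho was -0.008. The 36 members under 800 bases had a median of 0.14, with 8 higher and 4 lower, and the 43 longer members a median of 0.35, with 21 higher and 2 lower. The mean log2 level of 287 other transcripts under 800 bases was 5.41 to 5.52 in OB and 5.58 to 5.62 in ODR at day 14. With BMP4 in OB the other short transcripts stood at 5.73 and 5.84, above their 5.58 to 5.62 without it. There the members under 800 bases had a median difference of 0.27, with 8 higher and none lower, and the longer members 0.17, with 7 higher and 1 lower. The part of length in these results was not tested.

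**Figure D5:**
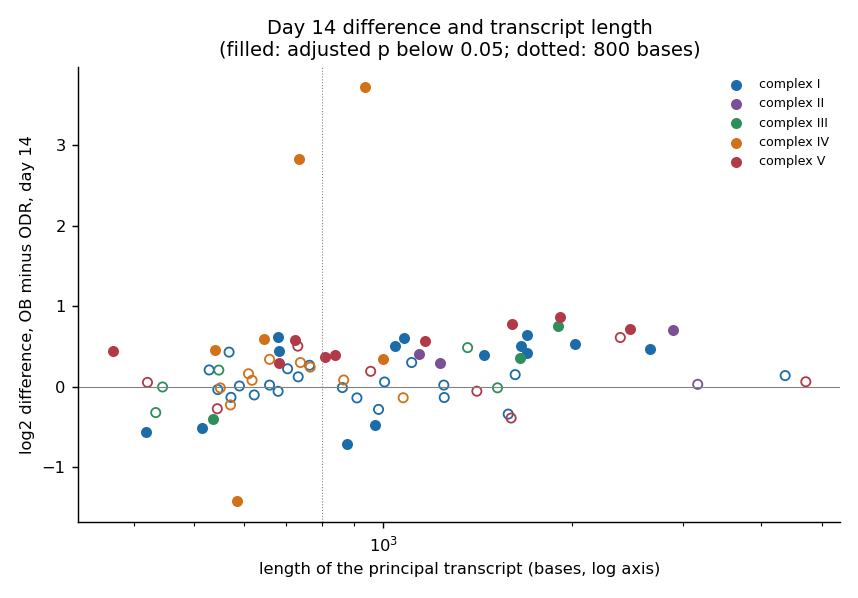
Log2 difference, OB minus ODR at day 14 (vertical axis), against the length of the principal transcript in bases (horizontal axis, log scale) for the 79 members by complex, filled at an adjusted p below 0.05, with 800 bases dotted. Members on the right of the dotted line have a median of 0.35 and those on the left 0.14.

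The promoter motifs were set beside the calls. Of the 24 members with a window that were higher in OB at day 14, 3 held the NRF1 motif, 3 the ETS motif and 5 the YY1 motif, and of the other 42 the counts were 7, 3 and 6. Of the genes printed above, Sdhb, Sdhd, Atp5k and Atp5j were higher in OB than in ODR at day 14, while Cox6a1 and Ndufa11 gave -0.22 and -0.03 and did not pass.

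Other genes of the pathway were taken from lists of named genes, and their counts stand against 27.6% of all genes higher and 26.2% lower in OB than in ODR at day 14. There, 8 of 14 tricarboxylic acid cycle genes (57.1%) were higher in OB than in ODR and none lower, with a median of 0.38. Citrate synthase (Cs) differed by 0.94 (SE 0.08, limma adjusted p = 6.99e-08), Idh2 by 0.95 and Suclg2, a subunit of succinyl-CoA ligase, by 1.64. Of 8 carriers, uncouplers and porins, 4 were higher and none lower, namely Vdac2, Vdac3, Ucp2 and Slc25a5.

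Of 21 regulators of respiratory gene transcription, 8 were higher (38.1%) and 2 lower (9.52%). Tfam, which packages and transcribes mitochondrial DNA, differed by 0.93 (SE 0.13, limma adjusted p = 7.62e-06), Nrf1 by 1.04 and Pprc1, a coactivator of the PGC-1 family, by 1.02. Esrra, a nuclear receptor of respiratory genes, differed by -0.72 and Nfe2l2, the oxidative stress factor, by -0.94.

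Assembly factors help build the complexes without staying in them. Of 15 complex I factors 4 were higher (26.7%) and 1 lower (6.67%), of 24 complex IV factors 3 were higher (12.5%) and 4 lower (16.7%), and of 11 factors of complexes II, III and V none was higher and 3 were lower (27.3%). The higher shares were thus near the background or under it. Ttc19, a complex III factor, had a difference of -1.25 (SE 0.13, limma adjusted p = 6.24e-07), and Coa6 and Sco2, which serve copper delivery to complex IV, -1.11 and -1.20. Among 15 genes of pyruvate entry and lactate, 3 were higher and 5 lower (33.3%), with Pdk1, which restrains pyruvate dehydrogenase, at values of 544 to 976 in OB and 154 to 157 in ODR (limma adjusted p = 1.11e-05). Differences were, for its relative Pdk2, -2.68, for Ldha, lactate dehydrogenase A, 1.09 and for Mpc1, the pyruvate carrier, -1.21.

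With BMP4 in OB, where 14.8% of all genes rose and 17.1% fell, 5 of 14 tricarboxylic acid cycle genes rose (35.7%) and 1 fell (7.14%), with Cs at 0.58 and Suclg2 at -0.98. Of the pyruvate and lactate genes 7 rose (46.7%) and 3 fell, with Pdk4 at 2.49, Ldha at 1.04 and Pcx, pyruvate carboxylase, at -1.59. Of the regulators 4 rose (19.0%) and 2 fell (9.52%), with Esrra at 0.65 and Hif1a at -1.26, and the Tfam and Nrf1 differences did not pass.

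The day 9 and reference libraries were single, so their values carry no test. ODB against ODDR at day 9, both without BMP4, had 5 members higher and 1 lower by at least 1.5-fold (20.4% and 20.8% of all genes), with a median difference of 0.20. Ndufa4l2 was 28 in ODB and 1 in ODDR, Cox6c was 593 and 328, Cox5a 555 and 320, Ndufb2 138 and 82 and Atp5g3 1029 and 633. The lower gene was Cox6b2, at 28 and 86. These are the directions that Ndufa4l2 and Cox6b2 had in OB against ODR at day 14.

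The stem cell library stood above the fibroblast library in 54 members by at least 1.5-fold and below in 2 (32.6% and 34.7% of all genes), with a median difference of 0.83. By complex the medians were 0.76, 0.30, 0.98, 1.01 and 0.88 for I to V, so complex II was nearest in level. Cox7c was 684 in mESC and 114 in MEF, Ndufa7 was 379 and 76, and Cox6b2 was 190 and 20. Sdha was 1407 and 1084 and Sdhb 516 and 448. The 2 members that were lower were Cox7a2l, a factor of supercomplex assembly, at 396 and 744, and Cox4i2, at 2 and 4. Short transcripts were low in the MEF library as a class, with a mean log2 level of 5.05 over 287 other transcripts under 800 bases against 5.34 in mESC and 5.41 or more in the infected cultures, and the part of this in the difference was not tested.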

How the data were processed

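RNA was made into poly-A selected libraries per the labels' protocols, and bcl2fastq, Bowtie2 2.2.5 and RSEM with build mm10 are named per the submitters' processing notes. The deposited values were treated as a normalized score in whole numbers, because the columns share nearly the same distribution, total and highest value. How the authors normalized them was not stated in the sources used here. No count model was used. Columns were mapped to samples by their titles, and no column was left unused. Values were taken as log2(value + 1). The 14129 genes that reached 10 in 2 or more columns entered a limma 3.58.1 fit in R 4.3.3 with a mean for each of 11 groups over 27 libraries, 16 residual degrees of freedom and no block, tested on simulated data. The design named limma unless the table held raw counts. Empirical Bayes moderation had no trend or robust option. The 19 comparisons were two-sided and called at a Benjamini-Hochberg adjusted p below 0.05. The group of ODR with BMP4 has 1 library in the fit and is assumed to vary like the others. Standard errors come from the pooled spread. The origin of replicates is not given, so p-values reflect variation among libraries that could be technical only.

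Deviations of same-numbered libraries from their group mean correlated at over 0.1 in all 6 pairs at day 1. Each group there has 2 libraries, whose deviations mirror each other, so these pairs are not independent and do not establish a pairing. The labels do not give a pairing. At days 6 and 14 same-numbered libraries correlated at over 0.1 in 2 of 13 and 4 of 9 pairs. A block within each day was added after seeing the data.

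The 2 pairs of columns with identical values were not counted as separate samples. Members and gene lists were chosen with earlier results of these data known. Named genes were, in each comparison and complex, the 3 or fewer called members of lowest adjusted p on each side whose libraries do not overlap, together with the restricted isoforms and their partners, the c ring genes and the Sdh genes. Of the other lists, at most 3 called genes on each side were named, and others were chosen after their values were seen. Positions and transcript lengths are from GENCODE vM21 (GRCm38), found for all 79 members, and promoters from RefSeq. Alternatives changed the pseudocount, the filter, the centring, the groups in the fit, the block, the moderation and single libraries.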

Additional observations from a re-analysis of the deposited data

Results flagged for a closer look

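In the group of 4 OB libraries at day 6, each named gene and each complex was checked for a library far from the others by Dixon's test, 41 checks in all, of which chance flags about 1 in 20. There were 4 such cases, all with a low library. Atp5c1 was 727 in OB replicate 4 against 782 to 790 in the others, and Ndufs1 was 357 in replicate 1 against 402 to 410. The mean log2 level of complex II was 8.72 and that of complex IV 7.58 in replicate 1, below the other 3 libraries. For both genes the day 14 OB libraries lay above all 4.

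The change from day 6 to day 14 differed between OB and ODR, by limma's test of the difference, in 11 named members. On the log2 scale the change in OB minus that in ODR was 0.65 for Atp5c1, 0.66 for Ndufb8, 0.54 for Atp5a1, 0.70 for Ndufv2, 0.61 for Atp5f1, 0.63 for Ndufs4, 0.61 for Uqcrc2, 0.52 for Sdhb and -0.55 for Ndufb4. For the restricted isoforms it was 2.94 for Cox4i2 and 3.72 for Ndufa4l2, the second against day 6 groups listed at 0. Cox4i2 passed the filter only through the OB libraries of day 14, so its difference is no independent support. The Ndufa4l2 difference lost its call in 13 of 22 alternatives (adjusted p up to 0.103).

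Among the matching rows kept out by the filter, Cox7a1, the muscle and heart form of subunit 7a, was 126 and Cox7b2, the testis form of subunit 7b, was 89 in the mESC library, which enters no test. Neither reached 10 in a second library.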

How the results depend on the processing

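Counts below are of called members. The 29 higher and 6 lower members of OB against ODR at day 14 became 28 and 6 with each library centred on its median, and 39 in all with a replicate block. No named gene changed direction in any alternative, and 209 of 1649 values of named genes under an alternative lost their call. Leaving out 1 library at a time gave 26 to 38 members for OB against ODR at day 14, 20 to 30 in place of 32 for OB against OA at day 14 (the lowest without OA replicate 1), 23 to 30 in place of 28 for OB from day 6 to day 14 and 10 to 20 in place of 15 for the change in OB minus that in ODR.

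Without single libraries the counts were 0 to 1 in OB against ODR at day 6, 0 to 2 in OB against OA at day 6, 0 to 1 in OA against ODR at day 14 and 0 to 2 for BMP4 in ODR. They were 7 to 17 in place of 16 for BMP4 in OB and 0 to 1 for the difference of the BMP4 effects. From day 1 to day 6 they were 2 to 10 in place of 8 in ODR, 3 to 14 in place of 12 in OA and 3 to 10 in place of 9 in OB. From day 6 to day 14 they were 0 to 2 in ODR and 0 to 3 in OA.

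In fits of only the groups compared, which have fewer samples to estimate the spread, OB against OA at day 14 gave 11 members, OB against ODR at day 6 gave 0 and OB against OA at day 6 gave 0. From day 1 to day 6 these fits gave 1 in ODR, 6 in OA and 5 in OB. They gave 0 in OA from day 6 to day 14, 0 for BMP4 in ODR and 1 for the difference of the BMP4 effects. Without the filter on low values, OB against ODR at day 6 gave 0, OA from day 6 to day 14 gave 1 and BMP4 in ODR gave 1. A pseudocount of 8 gave 1 in OA from day 6 to day 14. With the shared library kept as ODR day 6, BMP4 in ODR gave 1, and with it kept as ODR with BMP4, 0, and OB against ODR at day 6 gave 0. For these settings the cause was not tested.

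Over all days, deviations of same-numbered libraries had a median correlation of 0.0402 over 100 pairs (26 above 0.1) and of other pairs -0.0207 over 202. Within day 1 the correlation of same-numbered libraries was 0.194 to 0.232 (6 pairs, not independent). It was -0.154 to 0.241 at day 6 (13 pairs) and 0.0315 to 0.314 at day 14 (9 pairs). Over the members alone these ranges were 0.502 to 0.574, -0.508 to 0.368 and -0.182 to 0.616. A replicate block within each day, chosen after seeing the data, gave 0 members in the 3 comparisons at day 1, 39 for OB against ODR and 36 for OB against OA at day 14, 22 for BMP4 in OB and 14 for the change in OB minus that in ODR, and took away 4 calls of named genes. With 1 replicate block over all days the count was 13 in ODR and 20 in OA from day 1 to day 6, 1 in OA from day 6 to day 14, 1 for OA against ODR at day 14, 4 for BMP4 in ODR and 23 for BMP4 in OB. Leaving out the only ODR library with BMP4 gives no value. Depth is unknown, so its limits cannot be stated.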

Other observations

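Some members took nearly the same value in same-numbered libraries of all 3 combinations, an observation made after the values were seen. At day 1 Atp5e, the epsilon subunit of ATP synthase, was 144, 146 and 154 in replicate 1 of ODR, OA and OB and 266, 258 and 254 in replicate 2. At day 14 it was 132, 118 and 127 in replicate 1, 171, 178 and 188 in replicate 2 and 241, 251 and 256 in replicate 3. Cox6c was 358, 361 and 368 in replicate 1 and 568, 564 and 562 in replicate 2 at day 1, so for both genes the replicate number went with a larger difference than the combination did. The cause was not tested.

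These values are normalized by a step that is not known here, so a change common to most genes cannot be seen, and differences are relative to the other genes of a library. Messenger RNA levels of subunits do not measure assembled complexes or respiration. ODR with BMP4 rests on 1 library, day 9 and the reference cells on 1 each. Values near the bottom of the scale (Cox4i2, Ndufa4l2, Cox6b2) give folds that move with the pseudocount, and values near the ceiling (Atp5b) take coarse steps.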
